A study of Mus musculus with 6 samples.

Results

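The fatty acid desaturases of the mouse were followed in inguinal white adipose tissue (IngWAT), the subcutaneous fat of the groin, with and without *Hdac3* in fat cells. Members were taken by gene symbol: the 4 stearoyl-CoA desaturases *Scd1*, *Scd2*, *Scd3* and *Scd4*, and the fatty acid desaturases *Fads1*, *Fads2*, *Fads3* and *Fads6*. They are 8 of the 46517 genes counted, and 7 of them had a level of 1 cpm (counts scaled to a library of 1000000) or more somewhere and were tested. RNA-seq compared floxed mice with H3atKO mice, in which Cre driven by the *Adipoq* promoter deletes *Hdac3* in adipose tissues. Both groups carried floxed *Hdac3*. All were C57Bl6 mice aged 5 to 9 months on chow. There were 3 samples per genotype, each a pool of RNA from 2 or 3 mice, so the spread between samples is a spread between pools. The tissue was taken whole, so that fewer cells of a type and less RNA per cell cannot be told apart.

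Desaturases of the endoplasmic reticulum place a double bond into a fatty acid bound to coenzyme A, with electrons passed from NADH by cytochrome b5 reductase and cytochrome b5. The stearoyl-CoA desaturases turn palmitate and stearate into palmitoleate and oleate, the main monounsaturated acids of stored fat. FADS2 and FADS1 work on essential fatty acids, as the delta-6 and delta-5 steps on the way to arachidonic and eicosapentaenoic acid, in turn with elongases. FADS3 acts on other substrates, among them sphingoid bases, and the reaction of FADS6 is poorly known.

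On GRCm38 the *Scd* genes form a cluster on chromosome 19, at chr19:44203269-44244016 for *Scd3* (ENSMUSG00000025202), chr19:44293674-44306864 for *Scd2* (ENSMUSG00000025203), chr19:44333092-44346743 for *Scd4* (ENSMUSG00000050195) and chr19:44394455-44407879 for *Scd1* (ENSMUSG00000037071). *Scd1* alone of these 4 is on the minus strand. *Fads3* (ENSMUSG00000024664, chr19:10041569-10060110), *Fads2* (ENSMUSG00000024665, chr19:10062765-10101746, minus strand) and *Fads1* (ENSMUSG00000010663, chr19:10182888-10196877) lie side by side on the same chromosome. *Fads6* (ENSMUSG00000044788, chr11:115279622-115297663, minus strand) stands alone.

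Since *Scd1* was among the most counted genes of this fat, the likeness of its relatives bears on every count they received. The coding sequence of *Scd1* was identical at 90.4% of aligned bases with *Scd2*, at 91.5% with *Scd3* and at 85.2% with *Scd4*. The stretch of 60 coding bases most alike in the 4 genes holds no difference at all. It lies at coding bases 586 to 645 of *Scd1*, across a splice junction between 44400365 and 44401742 of chromosome 19, and reads the same in the others:
Scd1, Scd2, Scd3, Scd4: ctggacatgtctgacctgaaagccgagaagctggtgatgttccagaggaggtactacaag
The stretch of 60 bases least alike starts at coding base 295 of *Scd1* and shows what separates the genes. Capitals mark the bases that differ from *Scd1*:
Scd1: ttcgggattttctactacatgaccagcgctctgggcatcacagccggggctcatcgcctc
Scd2: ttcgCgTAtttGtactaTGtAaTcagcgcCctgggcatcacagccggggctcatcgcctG
Scd3: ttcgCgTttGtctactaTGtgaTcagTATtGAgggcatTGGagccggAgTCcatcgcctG
Scd4: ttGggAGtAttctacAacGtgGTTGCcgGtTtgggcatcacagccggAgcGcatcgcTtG
Over this stretch *Scd2* differed from *Scd1* at 10 bases, *Scd3* at 18 and *Scd4* at 17. Most of each transcript is not shared: windows of 50 bases that also occur in the transcript of another gene made up 4.66% of *Scd1*, 4.01% of *Scd2*, 6.69% of *Scd3* and 6.32% of *Scd4*. A read inside a shared window has several places, and such reads were given to no gene.

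The *Fads* genes are farther apart. Coding identity was 66.2% between *Fads1* and *Fads2*, 61.4% between *Fads1* and *Fads3* and 69.7% between *Fads2* and *Fads3*. Their most alike stretch of 60 coding bases, from coding base 1119 of *Fads1*, is shown with the bases that differ from *Fads1* in capitals:
Fads1: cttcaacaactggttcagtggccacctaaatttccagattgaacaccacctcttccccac
Fads2: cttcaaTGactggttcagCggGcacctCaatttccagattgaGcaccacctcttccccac
Fads3: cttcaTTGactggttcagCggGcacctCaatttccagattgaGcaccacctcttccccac
Even here *Fads2* differed at 6 bases and *Fads3* at 7. Windows of 50 shared bases were 0.161% of *Fads2* and 0.137% of *Fads3*, and none (0 of 3411) of *Fads1*, so reads could be told apart along nearly the whole of these transcripts.

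Reads counted on genes ranged from 23865507 to 35200685 per sample. In these libraries, before TMM scaling, 3 counts stood for 0.0852 to 0.126 cpm (counting error alone). *Hdac3* (ENSMUSG00000024454) itself was at 71.7 ± 7.61 cpm in the floxed pools and at 20.5 ± 7.28 cpm in the H3atKO pools (SD, n = 3 each; log2 fold change -1.83, adjusted p = 0.0213, limma). All 10 adipocyte markers, *Adipoq* among them, exceeded 1 cpm in every sample. Genes of the mitochondrial genome took 6.92% to 12.9% of counts in floxed and 26.9% to 35.3% in H3atKO samples. TMM factors were 1.30 to 1.37 in floxed and 0.66 to 0.92 in H3atKO samples, and cpm refers to TMM-scaled libraries unless stated. The median log2 fold change over all genes tested was -0.09 with TMM and -0.94 with library sizes alone. Fold changes also followed the GC content of the transcript (Spearman's rho of -0.71 across 14922 genes, which are not independent replicates). Here the genotype and the GC trend cannot be told apart, so GC-corrected values are given beside the others.

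With limma voom, *Scd2* and *Scd3* rose in H3atKO samples and no desaturase fell. At an adjusted p under 0.05 this is 2 of 7 members higher, where 9.42% of all tested genes were higher, and 0 of 7 lower, where 7.07% were lower. One of the 2, *Scd3*, passed the filter on low counts through its H3atKO samples alone and so could only be higher. Over all genes 1410 were higher and 1058 lower, whereas unscaled library sizes gave 306 higher and 5667 lower and the adipocyte marker scaling 44 higher and 1 lower. *Scd1* (higher) and *Fads1* (lower) missed the threshold, with an unadjusted p of 0.0123 and 0.0136 (limma). The edgeR quasi-likelihood test called *Fads1* lower beside the same 2 genes, where it called 1916 of all genes higher and 2749 lower. Same-numbered samples of both genotypes deviated together, and with the replicate number as a block limma voom called 3 members higher (24.8% of all genes) and 2 lower (28.7% of all genes). After GC correction the calls were 2 higher (5.46% of all genes) and 0 lower (3.20%), and with both they were again 2 higher (12.9%) and 0 lower (9.84%). *Scd2* and *Scd3* were the called genes in both GC-corrected fits. The 3 remaining calls under the block, *Scd1* higher and *Fads1* and *Fads2* lower, were absent after GC correction.

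**Figure D1:**
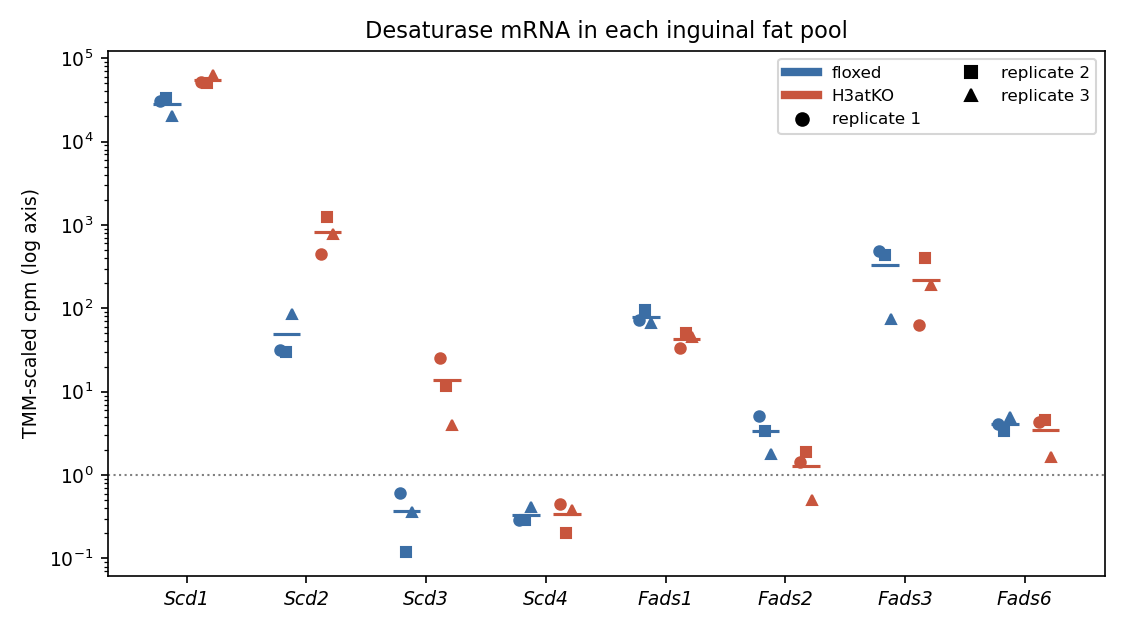
TMM-scaled cpm (log axis) of the 8 desaturases in each of the 6 pools. Symbols give the replicate number, short lines the mean of 3 samples and the dotted line 1 cpm on this axis. The 1 cpm needed for testing was taken in libraries before TMM scaling, so the line only approximates it. *Scd1*, *Scd2* and *Scd3* show no overlap between genotypes on the upper side and *Fads1* none on the lower side, while *Scd4*, *Fads2*, *Fads3* and *Fads6* overlap. Scaled by library sizes alone, *Scd1* overlaps and *Fads2* and *Fads6* do not. The share of all genes without overlap was not counted.

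*Scd1*, the main stearoyl-CoA desaturase of adipocytes, dominated the family. Its counts, in the order of the replicate numbers used throughout, were 1379754, 1398939 and 843221 for the floxed pools and 1241575, 980100 and 1003463 for the H3atKO pools. It was the first, first and second most counted gene of the floxed samples and ranked 3, 6 and 5 in H3atKO samples. Of all counts it took 3.78% ± 0.924 in floxed and 4.09% ± 0.674 in H3atKO pools (SD, n = 3 each), and these groups overlapped. Without the mitochondrial genome the shares were 4.14% ± 0.902 and 6.01% ± 0.793 (SD, n = 3 each). In TMM-scaled cpm the level was 30292, 33640 and 20494 in floxed and 51132, 49970 and 63439 in H3atKO samples, with every H3atKO pool above every floxed pool. The difference was 1.95-fold, or 0.99 on the log2 scale (SE 0.30, 95% interval 0.28 to 1.69), and it missed the threshold (adjusted p = 0.0576, limma). It passed with the replicate block (log2 fold change 1.00, adjusted p = 0.0448) and did not after GC correction (0.74, adjusted p = 0.128) or with library sizes alone (0.13, adjusted p = 0.721).

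*Scd2*, the form best known from brain and from developing skin and liver, had the smallest p of the family. Its counts were 1439, 1255 and 3555 in floxed and 10914, 24530 and 12310 in H3atKO samples. In cpm it stood at 31.6, 30.2 and 86.4 in floxed and at 449, 1251 and 778 in H3atKO samples, a mean of 49.4 ± 32.1 against 826 ± 403 (SD, n = 3 each). The lowest H3atKO pool was thus well above the highest floxed pool, replicate 3. Its rank among all genes by count moved from 4584, 4475 and 1567 to 201, 76 and 119. On the log2 scale it rose by 4.13 (SE 0.52, 95% interval 2.92 to 5.34, adjusted p = 0.0106, limma). It was 4.22 after GC correction (adjusted p = 0.0134) and 3.28 with library sizes alone (adjusted p = 0.00706). Leaving out 1 sample at a time gave 3.72 to 4.63, and the adjusted p exceeded 0.05 without floxed replicate 2 (0.0535) and without H3atKO replicate 3 (0.0549).

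*Scd3*, a form known from skin and its sebaceous glands and from the Harderian gland, was nearly silent in floxed fat, where 28, 5 and 15 reads fell on it. The H3atKO pools had 620, 227 and 63 reads, or 25.5, 11.6 and 3.98 cpm against 0.615, 0.120 and 0.365 cpm. It reached 1 cpm only in H3atKO samples, so it could enter the test only by being higher there. Without the filter the log2 fold change was 5.03 (adjusted p = 0.0213, limma). The log2 difference was 5.14 (SE 1.04, 95% interval 2.71 to 7.57, adjusted p = 0.0277, limma). After GC correction it was 5.19 (adjusted p = 0.0310). Leaving out 1 sample at a time gave 4.42 to 5.79 with an adjusted p between 0.0169 and 0.112. It exceeded 0.05 without floxed replicate 1, floxed replicate 2, H3atKO replicate 1 or H3atKO replicate 2. GENCODE M21 places an antisense gene, AC125101.1, across part of *Scd3*, and the strand setting of the counting is not given in the sources used here, so reads of either cannot be told apart.

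*Scd4*, a form known from heart, stayed at the edge of detection, with 13, 12 and 17 reads in floxed pools and 11, 4 and 6 in H3atKO pools. Its level was 0.329 ± 0.0729 cpm in floxed and 0.345 ± 0.128 cpm in H3atKO samples (SD, n = 3 each). It was not tested because no sample reached 1 cpm. Without that filter the log2 fold change was -0.03 (adjusted p = 0.975, limma), and a difference was not detectable at this depth.

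The balance within the family moved with *Scd2*. For every 1000 counts of *Scd1* there were 1.04, 0.897 and 4.22 counts of *Scd2* in floxed and 8.79, 25.0 and 12.3 in H3atKO samples, with no overlap. The log2 ratio of *Scd2* to *Scd1* was -9.31 ± 1.23 in floxed and -6.17 ± 0.77 in H3atKO samples (SD, n = 3 each), a difference of 3.14 that does not depend on the scaling of libraries. The two-sided exact permutation test gave p = 0.1, the smallest that 3 samples against 3 allow. Within same-numbered pairs the difference lay between 1.54 and 4.80. Even so, per kilobase of exon *Scd1* made up 99.8% ± 0.168 of the summed *Scd* level in floxed and 98.6% ± 0.732 in H3atKO samples (SD, n = 3 each).

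Relative to *Scd1* the other 2 genes were rare. *Scd3* had 20.3, 3.57 and 17.8 counts per 1000000 *Scd1* counts in floxed samples, and *Scd4* had 9.42, 8.58 and 20.2. In H3atKO samples *Scd4* had 8.86, 4.08 and 5.98 on this scale, whereas *Scd3* had 499, 232 and 62.8. The lowest *Scd3* ratio of the H3atKO samples lay above the highest of the floxed samples, and *Scd4* overlapped. Whether *Scd1* reads were counted on either gene was not tested.

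**Figure D2:**
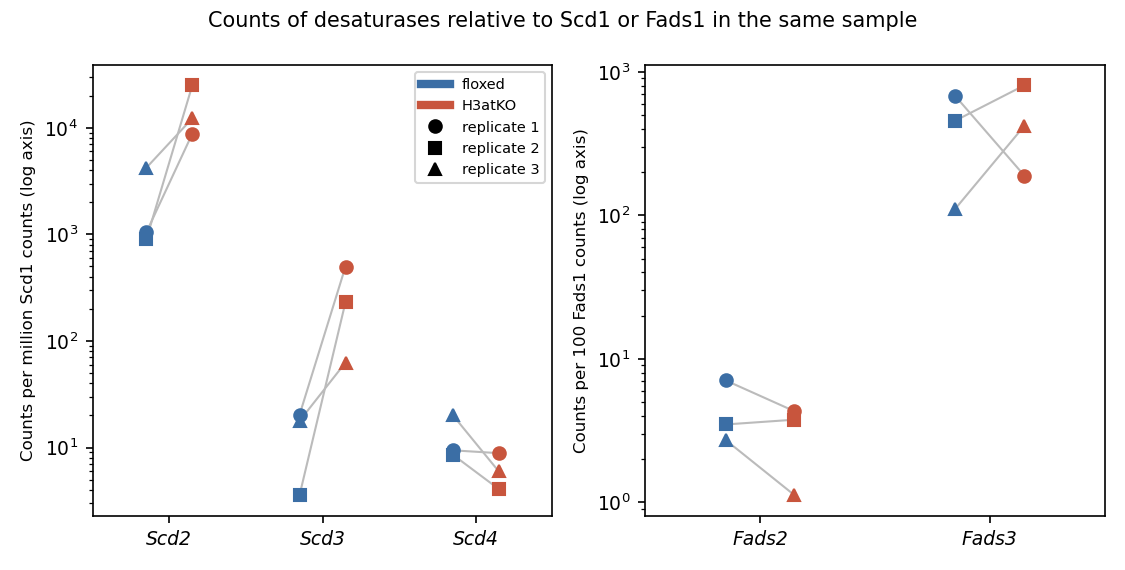
Left, counts of *Scd2*, *Scd3* and *Scd4* per 1000000 *Scd1* counts of the same sample; right, counts of *Fads2* and *Fads3* per 100 *Fads1* counts (log axes), with grey lines joining samples of the same replicate number. All 3 lines rise for *Scd2* and for *Scd3* and all 3 fall for *Scd4*, while those of *Fads2* and *Fads3* go in both directions.

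*Fads1*, the delta-5 desaturase, was lower in H3atKO samples with TMM scaling. Reads numbered 3278, 3988 and 2720 in floxed pools and 812, 983 and 714 in H3atKO pools, or 72.0, 95.9 and 66.1 cpm against 33.4, 50.1 and 45.1 cpm. The groups did not overlap and the levels differed 1.82-fold. The log2 fold change of -0.87 (SE 0.27) missed the threshold (adjusted p = 0.0600, limma) and passed it with the replicate block (adjusted p = 0.0124) and with library sizes alone (-1.71, adjusted p = 0.00948). After GC correction it was -0.17 (adjusted p = 0.708). Scaled to the adipocyte markers it was 0.51, where the median of all genes moved to 1.30. Genes within 1 percentage point of its GC content, 52.2%, had a median log2 fold change of -0.70.

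*Fads2*, the delta-6 desaturase and the step before *Fads1*, was scarce. Its 232, 139 and 74 counts in floxed and 35, 37 and 8 counts in H3atKO samples gave 5.09, 3.34 and 1.80 cpm against 1.44, 1.89 and 0.506 cpm. Floxed replicate 3 lay inside the H3atKO range. This was -1.40 on the log2 scale (SE 0.67, adjusted p = 0.143, limma), and with the replicate block -1.42 (adjusted p = 0.0267). After GC correction it was -0.28 (adjusted p = 0.661), beside a median of -1.12 over genes of like GC content before correction.

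The ratio of *Fads2* to *Fads1* did not separate the genotypes. There were 7.08, 3.49 and 2.72 counts of *Fads2* per 100 counts of *Fads1* in floxed and 4.31, 3.76 and 1.12 in H3atKO samples. The log2 ratio differed by -0.63 (two-sided exact permutation test, p = 0.6), from -4.62 ± 0.72 in floxed to -5.25 ± 1.07 in H3atKO samples (SD, n = 3 each).

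*Fads3* was the most abundant *Fads* gene in both genotypes and the most variable within them. Its counts were 22207, 18236 and 3027 in floxed pools and 1537, 7916 and 3002 in H3atKO pools, or 488, 439 and 73.6 cpm against 63.3, 404 and 190 cpm. Floxed replicate 3 was far below the other floxed pools, and H3atKO replicate 2 came close to those. The difference of -0.56 on the log2 scale (SE 0.88, 95% interval -2.62 to 1.49, adjusted p = 0.634, limma) was smaller than its own error. It turned to 0.31 after GC correction (adjusted p = 0.827) and ran from -1.44 without floxed replicate 3 to 0.13 without H3atKO replicate 1. The within-pair differences were -2.94, -0.12 and 1.37 for replicates 1 to 3. Per 100 *Fads1* counts there were 677, 457 and 111 *Fads3* counts in floxed and 189, 805 and 420 in H3atKO samples.

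*Fads6* was low throughout, with 186, 139 and 207 reads in floxed pools and 105, 89 and 26 in H3atKO pools. Its levels were 4.08, 3.34 and 5.03 cpm against 4.32, 4.54 and 1.64 cpm, and only H3atKO replicate 3 fell outside the floxed range. Between genotypes it differed by -0.32 on the log2 scale (SE 0.48, adjusted p = 0.627, limma), turning to 0.53 after GC correction (adjusted p = 0.424).

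**Figure D3:**
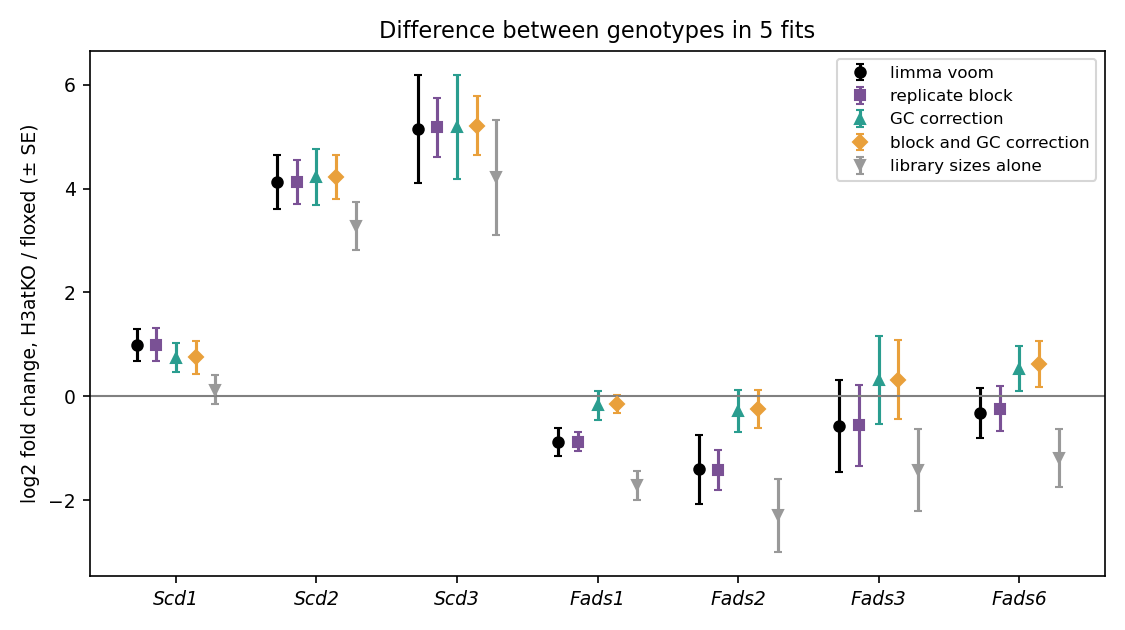
Log2 fold change of each tested desaturase (H3atKO over floxed, ± SE) in 5 fits. *Scd2* and *Scd3* stay above 3 in each fit, *Fads3* and *Fads6* cross 0 with GC correction, and library sizes alone place every gene lower than TMM does.

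Set against genes of like GC content, *Scd2* and *Scd3* were near the top and the *Fads* genes near the middle. Among the 1590 tested genes within 1 percentage point of the GC content of *Scd2* (49.5%), 99.4% had a lower fold change, and for *Scd3* the share was 99.8% of 1628 genes. *Scd3* entered the test through its H3atKO samples alone, so its high place was in part set by the filter. *Scd1* (47.1% GC) lay above 81.8% of its 1629 neighbours, whose median log2 fold change was 0.27. *Fads1*, *Fads2*, *Fads3* and *Fads6* lay above 43.9%, 38.9%, 62.2% and 71.3% of theirs.

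**Figure D4:**
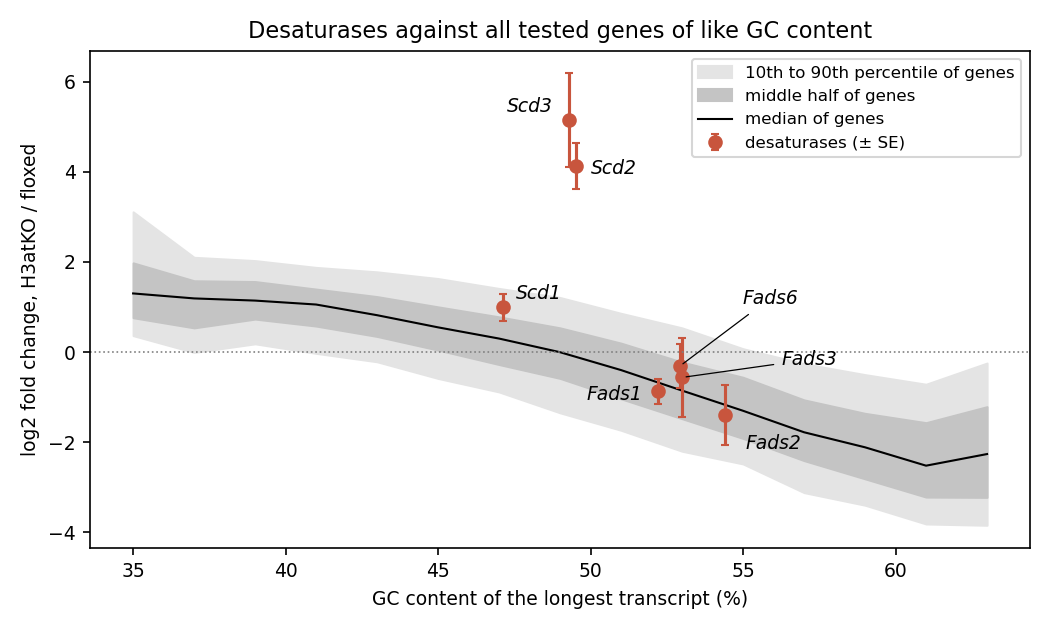
Log2 fold change (H3atKO over floxed) against the GC content of the longest transcript. Grey bands and the black line give percentiles and the median of all tested genes in bins of 2 percentage points, and red points the 7 tested desaturases ± SE. *Scd2* (4.13) and *Scd3* (5.14) lie far above the bands, and *Fads1*, *Fads2*, *Fads3* and *Fads6* lie within them. *Scd3* entered the test through its H3atKO samples alone.

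Per kilobase of merged exons, the order of levels in floxed fat was *Scd1* (5753 RPKM), *Fads3* (87.9), *Fads1* (16.2), *Scd2* (9.04), *Fads2* (1.04), *Fads6* (0.624), *Scd3* (0.103) and *Scd4* (0.0873). Samples of neighbours in this order overlapped for *Fads3* and *Fads1*, *Fads1* and *Scd2*, *Fads2* and *Fads6*, and *Scd3* and *Scd4*. In H3atKO fat the order was *Scd1* (11212 RPKM), *Scd2* (151), *Fads3* (57.7), *Fads1* (8.92), *Scd3* (3.86), *Fads6* (0.526), *Fads2* (0.388) and *Scd4* (0.0917). Here *Scd2* overlapped *Fads3*, *Fads1* overlapped *Scd3*, and *Fads6* overlapped *Fads2*. *Scd2* thus moved from the fourth to the second place, and *Scd3* from the seventh to the fifth.

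Markers of other cell types differed between pools, and their part in these levels was not tested. Summed over 12 B and T lymphocyte genes, all of them counted in every sample, the level was 176 cpm in floxed replicate 1, 488 in H3atKO replicate 1 and 610 in H3atKO replicate 3, but 9.58 to 17.8 in the other 3. *Scd2* was highest in H3atKO replicate 2, one of the lymphocyte-poor pools. With those 3 lymphocyte-poor samples alone, a choice made after seeing the data, the log2 fold change was 4.64 for *Scd2* and 5.73 for *Scd3*. These are values with no replicate check in H3atKO, where a single sample is left. The sum of 9 brown adipocyte markers was 245 to 324 cpm in floxed and 461 to 1310 cpm in H3atKO samples, without overlap. Most of the floxed sum came from *Pparg*, which is on this list and had a mean of 211 cpm in floxed and 164 cpm in H3atKO samples. By gene, 6 of the 9 genes had a higher and 3 a lower mean in H3atKO samples, and 2 passed the test, both higher. Of the 10 adipocyte markers 2 had a higher and 8 a lower mean in H3atKO samples, with 1 passing in each direction, and their sums were 25017 to 46087 cpm in floxed and 36835 to 77761 cpm in H3atKO samples. Sums of 10 stromal progenitor markers were 2193 to 9112 cpm and 1675 to 2658 cpm, highest in floxed replicate 3, the pool with the most *Scd2* and the least *Fads3* of its group, and 2 of the 10 passed as lower. Sums of 10 Schwann cell markers (216 to 352 against 120 to 168 cpm) and 8 endothelial markers (675 to 1123 against 448 to 590 cpm) were lower in H3atKO samples without overlap, with 3 and 4 genes passing as lower. The 10 macrophage markers summed to 316 to 1283 and 239 to 397 cpm (4 passed as lower), and the 10 skeletal muscle markers to 644 to 2794 and 3.10 to 3586 cpm. No lymphocyte, muscle or skin marker passed. The 10 skin and sebaceous gland markers, which include tissues known for *Scd3*, summed to 5.24 to 15.8 cpm and 14.0 to 18.6 cpm, with at least 2 of them at 0 in every sample. The liver markers other than *Cyp2e1*, which fat also makes, summed to 17.9 to 94.1 cpm in floxed and 0.759 to 1.81 cpm in H3atKO samples. In each floxed sample only 2 of the 8 liver markers, *Cyp2e1* included, reached 1 cpm before TMM scaling, and 2 were at 0. Of the 2 liver markers tested, 1 passed in each direction.

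The genes around the desaturases are described by lists. As above, 9.42% of all tested genes were higher and 7.07% lower by limma voom. Of 8 genes of saturated substrate supply, 5 rose and none fell, with a median log2 fold change of 2.09 against -0.09 for all tested genes. They were the elongase *Elovl6*, which makes stearate from palmitate (4.76, adjusted p = 0.0148), malic enzyme *Me1* (3.93, adjusted p = 0.00615), acetyl-CoA synthetase *Acss2* (2.98, adjusted p = 0.00867), fatty acid synthase *Fasn* (2.41, adjusted p = 0.0271) and acetyl-CoA carboxylase *Acaca* (1.76, adjusted p = 0.0126), all by limma. The others did not pass, at 1.16 for ATP citrate lyase *Acly*, 0.57 for *Acacb* and 0.32 for the citrate carrier *Slc25a1*. After GC correction 7 of the 8 were higher, all but *Acly*.

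Of 7 genes of electron supply, only *Cyb5b*, a cytochrome b5 of the outer mitochondrial membrane, rose (2.20, adjusted p = 0.00920, limma), and the median was -0.59. The microsomal cytochrome *Cyb5a*, the usual partner of the desaturases, was at 0.70 (adjusted p = 0.0642) and passed after GC correction (0.96, adjusted p = 0.0248). The reductase *Cyb5r3* was at -1.74 (adjusted p = 0.0858) and *Cyb5r4* at 0.90 (adjusted p = 0.0997). With the block, 3 of the 7 were higher and 3 lower, where 24.8% and 28.7% of all genes were.

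Of 11 tested partners of the polyunsaturated chain, which lengthen or shorten what FADS2 and FADS1 have desaturated, 4 rose and none fell (median 0.96). These were the elongase *Elovl5* (3.00, adjusted p = 0.00870), the ketoacyl-CoA reductase *Hsd17b12* (2.76, adjusted p = 0.00793), the dehydratase *Hacd2* (1.67, adjusted p = 0.0106) and the thiolase and carrier gene *Scp2* (1.77, adjusted p = 0.0117), all by limma. *Hsd17b4* (0.73), *Hacd3* (0.96), *Tecr* (-1.23) and *Acaa1b* (2.19) did not pass. After GC correction 5 of the 11 were higher (5.46% of all genes). These were the 4 that rose before it and *Acaa1b* (4.34, adjusted p = 0.00897, limma).

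Of 17 regulators of the desaturases, 3 were higher and 2 lower, beside 9.42% and 7.07% of all genes, with a median of -0.71. *Insig1* (2.63, adjusted p = 0.0118) and *Insig2* (1.87, adjusted p = 0.0367), which hold SREBP precursors in the endoplasmic reticulum, and the nuclear receptor *Ppara* (2.05, adjusted p = 0.0248) rose, by limma. *Mlxipl*, which encodes ChREBP (-2.16, adjusted p = 0.0343), and the SREBP-cleaving protease *Mbtps1* (-0.96, adjusted p = 0.0493) fell. Counts per gene do not tell the isoforms of ChREBP apart. By quantitative PCR the study reported more mRNA of the isoform ChREBPβ, and also of *Pparg*, in IngWAT of H3atKO mice on a low fat diet. After GC correction *Mlxipl* (-0.50), *Mbtps1* (-0.73) and *Insig2* (1.46, adjusted p = 0.0982) did not pass. Before that correction *Pparg* (-0.39), *Thrsp* (1.51), *Rxra* (-1.64) and *Mbtps2* (0.76) did not pass. With it 4 of the 17 were higher (5.46% of all genes) and 0 lower (3.20%). *Thrsp* was among the 4 (2.18, adjusted p = 0.0474, limma). With the replicate block, 5 of the 17 were higher and 8 lower, beside the same 24.8% and 28.7% of all genes.

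Of 13 genes listed as users of unsaturated acyl-CoA, 4 rose and none fell (median 0.60). The list also holds acyl-CoA synthetases, which make acyl-CoA and do not use it. They were the acyl-CoA synthetases *Acsl3* (2.87, adjusted p = 0.00887) and *Acsl1* (1.74, adjusted p = 0.0224), the lysophospholipid acyltransferase *Lpcat3* (1.59, adjusted p = 0.0292) and the glycerol phosphate acyltransferase *Gpam* (1.30, adjusted p = 0.0271), all by limma. *Dgat2* (1.09), *Dgat1* (-0.04), *Agpat2* (-0.27) and *Acsl4* (1.16) did not pass. After GC correction 4 were higher (5.46% of all genes), since *Acsl1* no longer passed (1.18, adjusted p = 0.0652) and *Agpat2* did (1.71, adjusted p = 0.0286). Among 7 tested desaturases and hydroxylases that act on other lipids, 3 rose and none fell (median 1.13). These were the dihydroceramide desaturase *Degs1* (1.13, adjusted p = 0.0451) and the sterol enzymes *Sc5d* (1.56, adjusted p = 0.0423) and *Msmo1* (1.27, adjusted p = 0.0272), by limma. After GC correction only *Msmo1* of these 3 remained past the threshold (0.71, adjusted p = 0.0489). With library sizes alone the list medians were 1.23 for substrate supply, -1.46 for electron supply, 0.11 for chain partners, -1.55 for regulators, -0.27 for users and 0.28 for the other enzymes, where the median of all genes was -0.94.

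**Figure D5:**
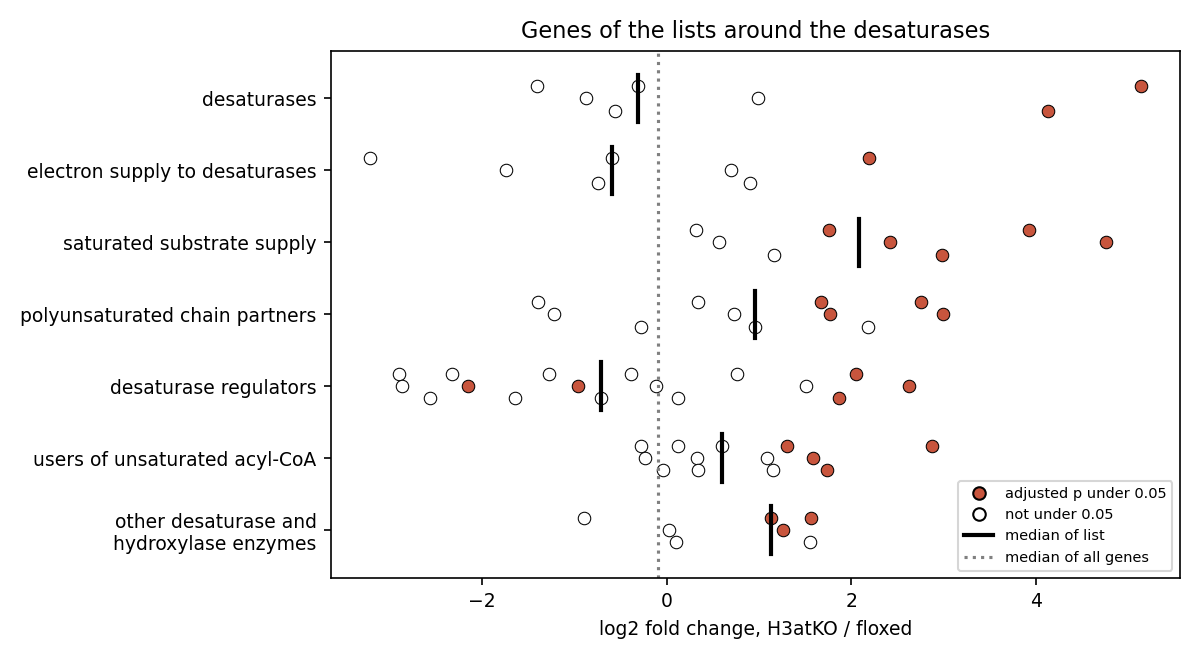
Log2 fold change (H3atKO over floxed) of every tested gene of the desaturases and of 6 lists around them; filled points have an adjusted p under 0.05 by limma, black bars are list medians and the dotted line is the median of all tested genes. The filled points of the substrate, chain partner, user and other enzyme lists all lie above 0, and regulators have filled points on both sides.

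The genes whose centred log2 cpm was nearest to that of a desaturase over the 6 samples were found by the root mean square difference. For *Scd2* they were *mt-Ti* (0.34), *St3gal6* (0.36) and *Gm6166* (0.37), where *Scd2* itself varied with a standard deviation of 2.16. *Scd3* was nearest to *Ehhadh* (0.65), *Cyp2b10* (0.71) and *Rasef* (0.77), and *Scd1* to *Pde4b* (0.15), *Nepn* (0.15) and *Apex2* (0.15). For *Fads1* they were *B4gat1*, *Firre* and *Chn1* (0.07 to 0.08), for *Fads2* *Tysnd1*, *Tkfc* and *Msrb1* (0.12 to 0.13), for *Fads3* *Myom3*, *Apln* and *Tuba1a* (0.26 to 0.38), and for *Fads6* *Sem1*, *Mpi* and *As3mt* (0.13 to 0.17). No desaturase was among the 3 nearest genes of another.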

How the data were processed

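RNA of IngWAT was measured in 3 floxed and 3 H3atKO pools. Per the study's methods, poly(A)-selected stranded libraries were sequenced from single ends, trimmed with Cutadapt 1.3, aligned to GRCm38 with STAR 2.4.2a and counted on Ensembl genes with htseq-count 0.6.1. The authors deposited these counts per gene, not normalized. The 5 closing tally lines of each file were left out, and reads with several places are among them.

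The 14967 genes that reached 1 cpm in any sample were scaled with TMM (edgeR 4.0.16) and compared with limma 3.58.1 (voom, genotype only; R 4.3.3), with Benjamini-Hochberg adjustment over all genes and calls at an adjusted p under 0.05. Symbols, positions and GC content came from GENCODE M21 (46005 of 46517 identifiers matched). Coding sequences of M21 transcripts were aligned with MAFFT, and identity was taken over bases aligned without gaps. For the GC correction, a loess curve on GC content (span 0.3) was subtracted from each sample. The limma, edgeR and DESeq2 fits were run on simulated counts drawn without a GC trend, a shift in the mitochondrial share or pairing. That run says nothing of how the fits handle those features.

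Deviations from the group mean correlated between same-numbered samples of both genotypes (r of 0.51, 0.39 and 0.26), so the replicate numbers were taken to pair the samples; the labels do not say what they stand for. Nothing says which mice entered which pool, and p-values measure the spread between pools.

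The text names every desaturase, *Hdac3*, every gene of the lists past the test, up to 4 others per list by highest mean cpm, and the 3 nearest genes of each tested desaturase. One gene of the chain partner list is not reported here and was left out of its counts. Members and lists were chosen with earlier results of these data known. Other tools (edgeR's quasi-likelihood test, DESeq2 1.42.0), scalings, filters, weights, thresholds and left-out samples were tried as alternatives.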

Additional observations from a re-analysis of the deposited data

How the results depend on the processing

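The 2 desaturases called by limma voom became 4 with DESeq2 (3 higher, 1 lower), 4 with library sizes alone (2 higher, 2 lower), 5 with sample quality weights and 5 with the replicate block (3 higher and 2 lower in both). At an adjusted p under 0.1, where the share of all genes was not counted, they became 4 (3 higher, 1 lower). They became 1 with scaling to the adipocyte markers. The lymphocyte-poor samples alone were added after seeing the data. The lone H3atKO sample there is assumed to vary like the 2 floxed ones, so that fit says nothing of stability and its calls are not given. With each sample left out in turn there were 0 to 4 calls: 0 without floxed replicate 2 (0 higher, 0 lower), 4 without floxed replicate 3 and 1 without each of the other 4. Over all genes these fits called 1 higher and 0 lower without floxed replicate 2, 2729 and 3828 without floxed replicate 3, and 87 to 395 higher and 20 to 139 lower without one of the others. With at least 10 counts in every sample, *Scd3*, *Scd4* and *Fads2* could not be tested. Over all genes, limma voom called 1410 higher and 1058 lower, edgeR 1916 and 2749, DESeq2 2935 and 3465, the fit with the replicate block 3717 and 4290, and that with quality weights 4003 and 4440. Library sizes alone called 306 higher and 5667 lower, and scaling to the adipocyte markers 44 and 1.

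Leaving the lymphocyte-poor samples aside, *Scd2* kept its direction in 19 alternatives and its call in 17, and *Scd3* its direction in 18 and its call in 13. *Scd1* kept its direction in 19 and was called in 4 of them at an adjusted p under 0.05. For each gene 1 of these alternatives is the main limma voom fit read at an adjusted p under 0.1. There the direction was fixed and a call could not be lost. Wherever the 1 cpm filter was kept, *Scd3* entered through its H3atKO samples alone, so its direction was in part set by the filter. Scaling to the adipocyte markers moved the median of all genes from -0.09 to 1.30, and *Fads1* to 0.51, still below that median, as were *Fads3* and *Fads6*. *Fads3* turned to 0.31 with GC correction, 0.32 with the block and GC correction, 0.82 with scaling to the adipocyte markers and 1.20 with the lymphocyte-poor samples, and *Fads6* to 0.53, 0.63, 1.08 and 0.18 in the same order and to 0.13 with quality weights. With 1 sample left out, *Fads3* lay between -1.44 and 0.13 and *Fads6* between -0.60 and 0.12. The causes were not tested. The replicate block changed the calls of *Scd1*, *Fads1* and *Fads2* and of no other desaturase, and within pairs the *Scd2* to *Scd1* difference averaged 3.14 and that of *Fads2* to *Fads1* -0.63. The order of levels was the same with the length of the longest transcript.

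*Scd4*, with 4 to 17 counts, and *Fads2*, with 8 to 37 in H3atKO samples, are limited by depth, and 3 pools per genotype cannot give an exact p below 0.1.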
